A study of Drosophila melanogaster with 24 samples.

Results

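The comparison described here is the change in mRNA level that brat mutant Drosophila melanogaster embryos underwent between 0-1.5 h and 1.5-3 h after egg-laying. It was chosen by the sample titles alone, as the 3 samples of brat mutant embryos at 1.5-3 h against the 3 at 0-1.5 h, which makes 6 of the 24 samples of the series, and it was described over all 13626 genes with values. The brat mutant embryos were laid by females carrying the bratfs1 allele over the deficiency Df(2L)TE37C-7, mated to males from the same cross, most of which carried 1 of these chromosomes over the CyO balancer, and wild-type embryos came from w1118 flies. bratfs1 is a missense allele in the NHL domain of BRAT, so the gene product was altered and not absent, and the mutant embryos combine the maternal genotype with whatever each embryo inherited. Each group was a pool of embryos staged by collection window, with 3 biological replicates, and total RNA was hybridized to custom NimbleGen arrays. At every time the dye was Cy3 for mutant replicates 1 and 3 and Cy5 for mutant replicate 2, with the opposite dyes in the wild type, so dye was balanced over time within each genotype. The 3 wild-type samples at each of the same times were used only to compare the change. In such bulk samples fewer cells of a type and less RNA per cell cannot be told apart.

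In the first hours of Drosophila development the embryo runs on mRNA loaded into the egg by the mother. During the maternal-to-zygotic transition (MZT) much of that mRNA is destroyed, first by maternally supplied factors and then with the help of zygotic products, while the zygotic genome is switched on. BRAT is an RNA-binding protein that acts, in part together with Pumilio (PUM) and Nanos, to repress maternal mRNAs. The contrast therefore covers the time at which maternal mRNAs are lost and zygotic mRNAs gained, in embryos without normal BRAT.

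Levels are given as log2 RMA signal, so a difference of 1 is a doubling or halving of the signal. Replicate values are always listed in the order 1, 2 and 3. A gene is called higher or lower when limma gave an adjusted p under 0.05 over all 13626 genes (a false discovery rate, FDR, of 5%), and "expressed" means above the mean of all array rows in a group at the same FDR. Across the 5558 genes expressed in at least 1 group, replicates of the mutant correlated with r from 0.956 to 0.961 at 0-1.5 h and from 0.941 to 0.954 at 1.5-3 h. The 13 chorion, vitelline membrane and yolk protein genes that mark follicle cells and ovary were expressed in none of these samples, with list means between 8.07 and 8.27 in the 6 mutant samples. The labelled stages were checked with 4 maternal and 6 zygotic stage markers: 3 of the 4 maternal markers (nos, osk and pgc) fell and 5 of the 6 zygotic ones (ftz, bnk, Kr, eve and sna) rose, while bcd changed by -0.20 (adjusted p = 0.668) and nullo by 0.87 (adjusted p = 0.349). The genotypes differed at the start: at 0-1.5 h the mean of the zygotic markers lay between 9.78 and 10.26 in the mutant, with 3 of 6 expressed, and between 9.06 and 9.27 in the wild type, with 0 expressed. The mean of the maternal markers lay between 12.91 and 13.06 in the mutant and between 13.16 and 13.36 in the wild type. The part of this offset in the differences between mutant and wild-type changes was not tested. The brat mRNA itself, which a missense allele need not lower, read 13.19, 13.40 and 13.27 at 0-1.5 h and 13.94, 13.85 and 13.72 at 1.5-3 h in the mutant. Its change of 0.55 did not pass the test (adjusted p = 0.0947), but did among expressed genes only (0.0373), in the fit of all 24 samples (0.0268) and with limma-trend (0.0143).

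Both sides of the transition took place in brat mutant embryos. Between the first time window and the next, 1095 genes fell (8.04% of those tested) and 608 rose (4.46%), each with a median size of 1.22 on the log2 scale. At least 2-fold changes were seen for 780 of the genes that fell and 408 of those that rose, and at least 8-fold changes for 20 and 6. Without mutant replicate 2 of 0-1.5 h, 765 genes fell and 397 rose. The number of expressed genes went from 4431 to 3991: 753 genes were expressed only in the earlier window and 313 only in the later. Later levels mostly kept to the same side. At 3-4.5 h 98.7% of the genes that had fallen were below, and 95.4% of those that had risen above, their mean at 0-1.5 h. At 4.5-6 h the shares were 98.6% and 93.3%. Because that mean was among the values that chose these genes, the choice itself favours such shares. No share over all genes is given here. The median level of the genes that fell was 10.95, 9.49, 9.38 and 9.41 at the 4 successive times, and that of the genes that rose 9.44, 10.92, 11.18 and 11.18.

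These counts rest on the authors' quantile normalization, which gives all samples one distribution of values. The 83 cytosolic ribosomal protein genes, none of which passed the test singly, had a median change of 0.27, and their mean level lay between 13.20 and 13.42 in the 3 earlier mutant samples and between 13.46 and 13.64 in the 3 later ones. With every sample shifted to an equal ribosomal protein mean, the median of all genes moved by -0.27, and 359 genes were higher and 1811 lower, so that 16.5% of calls were rises, against 35.7% with the values as deposited. RpL32 changed by 0.24 (adjusted p = 0.568), and by -0.02 under that scaling.

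**Figure D1:**
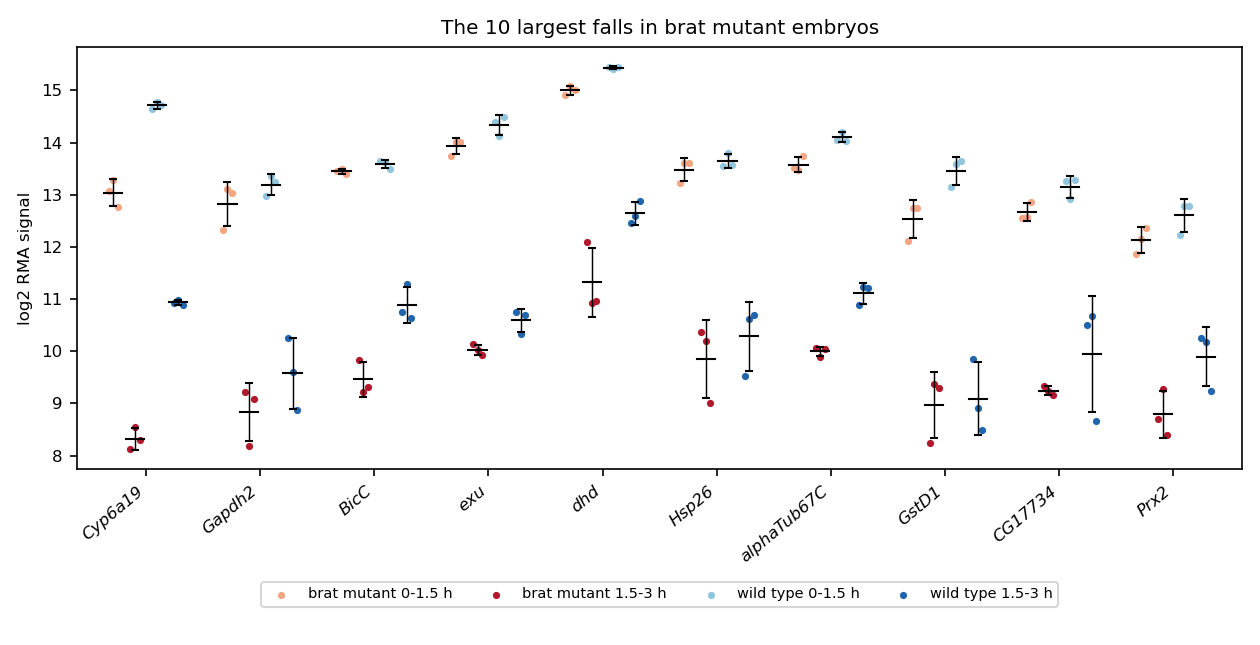
Log2 RMA signal of the 10 genes with the largest falls in brat mutant embryos, for each of 3 replicates in the mutant and the wild type at 0-1.5 h and 1.5-3 h; bars are means and error bars SDs. The genes were chosen for mutant windows that do not overlap, as for Cyp6a19, which went from between 12.77 and 13.28 to between 8.13 and 8.55.

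The largest falls were of abundant maternal mRNAs, and none of the 10 was limited to the mutant. Cyp6a19, a cytochrome P450 gene whose mRNA is BRAT-associated, read 13.07, 13.28 and 12.77 and then 8.13, 8.55 and 8.29, which is a change of -4.71 ± 0.22 (SE, n = 3 per time, adjusted p = 1.3e-06). It was no longer expressed in any later window, whereas in the wild type it fell from 14.64, 14.78 and 14.73 to 10.93, 10.99 and 10.89. BicC, an RNA-binding repressor of maternal mRNAs in the ovary, went from 13.46, 13.49 and 13.39 to 9.84, 9.22 and 9.32 (-3.99 ± 0.22). Its wild-type change was -2.70, but the difference between genotypes did not pass the test (adjusted p = 0.13). exu, which is needed to place bicoid mRNA at the anterior of the oocyte, fell by 3.91 from 13.75, 14.02 and 14.02 to 10.13, 10.02 and 9.92. dhd encodes a thioredoxin that helps to strip protamines from the sperm chromatin, and fell by 3.68 from 14.92, 15.08 and 15.01 to 12.09, 10.92 and 10.97. alphaTub67C, the maternal alpha-tubulin of the early spindles, fell by 3.58 from 13.51, 13.48 and 13.75 to 10.06, 9.89 and 10.04. The others were the glycolytic enzyme gene Gapdh2 (-3.99), the small heat shock gene Hsp26 (-3.62), the glutathione transferase gene GstD1 (-3.57), CG17734 (-3.42) and the peroxiredoxin gene Prx2 (Jafrac1 in the files, -3.34). All 10 were also called lower in the wild type, where their changes ran from -4.37 for GstD1 to -2.70 for BicC. Windows that do not overlap were part of the rule that chose these 10 genes. All 10 stayed called whichever of the 6 mutant samples was left out, which their choice by size on these same samples favours.

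Genes of the germ plasm list fell as a group in both genotypes. Some of their mRNAs are held at the posterior pole and kept by the future germ cells while the rest of the embryo destroys them. The list also holds genes chosen for what their proteins do, and where each mRNA lay was not examined. Of 19 measured, 10 fell and none rose in the mutant (52.6% lower against 8.04% of all genes), with a median of -0.85 against 0.02 for all genes. Wild-type embryos had 12 lower (63.2% against 11.6%), with a median of -1.03. nos, whose protein represses hunchback at the posterior, went from 12.12, 12.26 and 12.10 to 9.19, 9.33 and 9.61 in the mutant (-2.79 ± 0.20, adjusted p = 2.1e-05). pgc, which keeps transcription off in pole cells, fell by 2.44 from 13.03, 13.16 and 12.70 to 10.68, 10.71 and 10.17. osk, the organizer of the germ plasm, read 14.36, 14.54 and 14.31 and then 13.02, 13 and 12.86. That is a change of -1.44, beside -2.22 in the wild type, and the genotypes were not told apart by the test of the difference (adjusted p = 0.385). The translational regulators orb (-1.76), bru1 (-1.30) and cup (-0.85), the RNA helicase gene vas (-1.42), piwi (-1.93), gcl (-0.88) and Hsp83 (-1.83) fell as well. Among the 9 members not called were CycB (-0.04), AGO3 (-0.09), aub (-0.25) and tud (-0.38). For tud the wild-type change was -1.46 and was called, but the difference of 1.08 between the genotypes was not (adjusted p = 0.285).

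Among 21 maternal axis genes 6 fell in the mutant and 6 in the wild type, which is 28.6% in each, against 8.04% and 11.6% of all genes. Beside exu, nos and osk these were dl, the dorsoventral transcription factor gene, at -1.14, spz, which encodes the ligand of Toll, at -1.62, and swa, another factor of bicoid mRNA localization, at -0.77. The dorsoventral receptor gene Tl and its inhibitor gene cact read -0.23 and 0.10 and were not called. The anterior determinant bcd and the posterior one cad read -0.20 and -0.33. None of these 4 passed the test.

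Of 22 genes that act in the repression and decay of maternal mRNAs, 6 fell (27.3% against 8.04% of all genes) and none rose, with a median of -0.23. Among these 6 were nos and cup, which were already counted in the germ plasm list. The 3 subunits of the PAN GU kinase, which drives translation of maternal mRNAs at egg activation, all fell: png by 2.00, gnu by 2.70 and plu by 1.22. plu read 9.06, 9.85 and 9.83 and then 8.45, 8.38 and 8.27. In the wild type plu changed by -0.19 without passing the test, and the test of the difference was not passed either (adjusted p = 0.505). Of the CCR4-NOT deadenylase, twin, its Ccr4 subunit, fell by 0.78, whereas Not1 (0.14), Pop2 (-0.31) and Not3 (0.28) were not called. smg, which encodes the main early decay factor, read -0.19, pum 0.03 and me31B -0.34, and none of them passed the test.

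The proteasome consists of a proteolytic core and a regulatory particle that recognizes ubiquitinated substrates. Of 46 proteasome genes 13 fell in the mutant (28.3% against 8.04% of all genes) and none rose, with a median of -0.26. All 13 encode regulatory particle subunits, which is 13 of 23 such genes (56.5%, median -0.87), and none of the 23 others was called (median -0.05). At 0-1.5 h 18 of the 23 regulatory particle genes and 13 of the 23 others were expressed in the mutant. This division of the list was made after the values had been seen. Rpt3 fell by 1.78, Rpn10 by 1.71, Rpn11 by 1.67 and Rpt2 by 1.63. In the wild type 9 of the 23 regulatory particle genes fell (39.1% against 11.6% of all genes, median -0.61) and none of the others. Of 27 cell cycle genes 5 fell (Cdk2, Myt1, grp, aurA and Rca1), which is 18.5% against 8.04% of all genes, and 1, aurB, rose. Of the same genes 10 fell in the wild type (37.0% against 11.6%). The mitotic inducer stg, the fly Cdc25, read 13.69, 13.64 and 13.52 and then 13.70, 13.77 and 13.92 in the mutant. In the wild type it fell by 0.83 from 13.39, 13.52 and 13.47 to 12.59, 12.48 and 12.83, and the difference of 1.01 did not pass the test (adjusted p = 0.144).

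mRNAs associated with BRAT in immunoprecipitates of wild-type embryo extract fell in the mutant as a group. That list came from other samples, and 1170 of its genes were measured here. Of these 258 were lower (22.1%) and 44 higher in the mutant, compared with 8.04% and 4.46% of all genes. The mean level of the list lay between 10.78 and 10.94 in the earlier mutant samples and between 10.45 and 10.52 in the later, without overlap. The mean of the other 12456 genes is nearly fixed by the normalization, and their median change of 0.03 became -0.24 under ribosomal protein scaling, beside -0.52 for the list. The median change was -0.25, which is 0.28 below that of the other genes, with an SD of 0.12 (replicate variances of both windows added). In the wild type 433 of the list fell (37.0%, against 11.6% of all genes), with a median of -0.43. Gene by gene, the mutant change minus the wild-type change had a median of 0.13 in the list and -0.02 in the other genes. These medians lay 0.16 apart before rounding, with an SD of 0.16. That SD adds replicate variances, so it is a spread of single samples and not a standard error. The gap was not tested. BRAT-associated mRNAs also started from higher levels, a median of 10.69 against 8.39 for the other genes at 0-1.5 h in the mutant. Among genes called lower in the wild type, 53.3% of the BRAT-associated and 57.3% of the others were also called lower in the mutant, with median mutant changes of -0.85 and -0.93.

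Lists split by association with PUM were not compared by a test. The 972 BRAT-not-PUM mRNAs had a median of -0.29 in the mutant and -0.50 in the wild type, and 22.9% and 39.7% of them fell, while 2.67% and 3.70% rose. The 198 mRNAs associated with both proteins read -0.08 and -0.18, with 17.7% and 23.7% lower and 9.09% and 9.60% higher. For the 425 PUM-not-BRAT mRNAs the medians were -0.11 and 0.01, and 17.2% and 21.9% fell, while 8.94% and 16.0% rose. These are descriptions of lists that differ in starting level and share the samples.

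**Figure D2:**
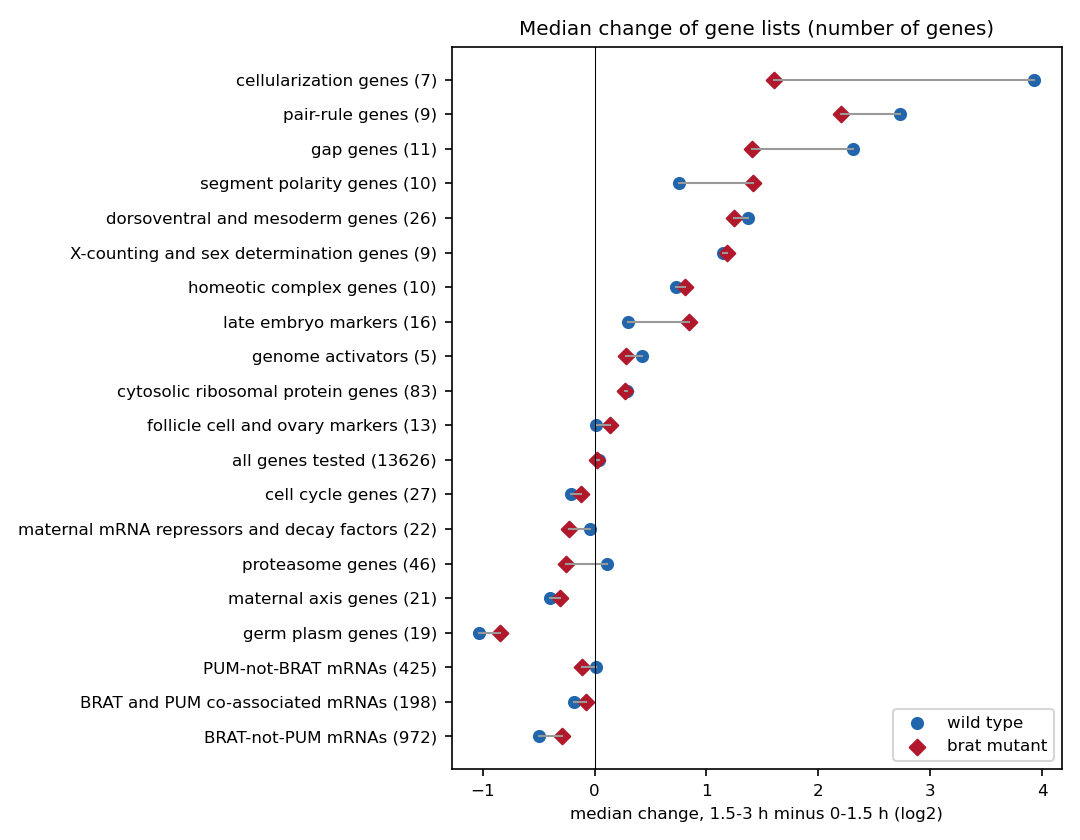
Median change between 0-1.5 h and 1.5-3 h of each gene list in brat mutant (diamonds) and wild-type (circles) embryos, on the log2 scale, with the number of genes in parentheses. Cellularization genes lie at 1.60 in the mutant and 3.93 in the wild type, and germ plasm genes at -0.85 and -1.03.

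The 6 classes into which the study had sorted the genes that were upregulated in these same mutant samples were chosen on these data and are given only as a description. They were clustered by their wild-type profile, and that profile is therefore part of the choice. Class A genes (96 measured) had a median of -0.29 in the mutant and -1.02 in the wild type, with 16 and 68 genes lower. Class B (171) read -0.42 and -0.89, with 57 and 104 lower. Class C (301) read -0.15 and 0.03 and had few calls in either genotype, 15 and 19 lower. Class D (302) rose in both, by medians of 1.13 and 1.10, with 180 and 187 genes higher. Class E (256) read 0.72 and 0.33, with 107 and 58 higher, and Class F (104) 0.24 and 0.43, with 18 and 20 higher. Among all genes tested 8.04% were lower and 4.46% higher in the mutant, and 11.6% lower and 5.74% higher in the wild type.

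Zygotic patterning genes rose in the mutant. All 9 pair-rule genes, which set up the segmental repeat, were called higher in both genotypes, with medians of 2.20 and 2.73. Of all genes 4.46% were higher in the mutant and 5.74% in the wild type. ftz read 9.32, 8.80 and 9.52 and then 12.27, 11.86 and 12.02 (2.84 ± 0.24, adjusted p = 3.7e-05). prd read 8.32, 8.43 and 8.45 and then 11.23, 10.95 and 10.75 (2.58 ± 0.21). Both were among the 10 largest rises. They were transient in the mutant: ftz had a mean of 10.79 at 3-4.5 h and 9.51 at 4.5-6 h, and prd 9.61 and 8.27. The smallest rise of the list was that of run, at 1.31. CG34214, a gene to which no role is given here, also belonged to the largest rises and went from 9.61, 8.78 and 10.22 to 11.96, 12.52 and 11.81 before it returned to 8.78 at 3-4.5 h.

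Gap genes, the first zygotic genes to read the maternal gradients, rose in 9 of 11 cases with a median of 1.41, and in 9 in the wild type with a median of 2.31. That is 81.8% in each, against 4.46% and 5.74% of all genes. Kr read 10.93, 11.16 and 11.63 and then 13.21, 13.77 and 12.89 in the mutant, and gt 10.24, 9.58 and 10.67 and then 12.58, 12.22 and 11.90. The changes were 2.05 and 2.07. hb, which is both maternally supplied and zygotic and whose maternal mRNA is the classic target of Nanos, PUM and BRAT, read 13.49, 13.68 and 13.84 and then 13.95, 13.85 and 13.70, with overlap. Its change of 0.16 was not called (adjusted p = 0.717), nor was the wild-type change of 0.54, and the sign turned to -0.11 under ribosomal protein scaling. cnc, at -0.51, was the other gap gene not called.

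Of 26 dorsoventral and mesoderm genes 15 rose (57.7% against 4.46% of all genes) and none fell, with a median of 1.25 beside 1.37 in the wild type. The mesoderm determinants twi (2.17) and sna (1.96) and the Dpp repressor gene brk (1.93) rose in each genotype. twi went from 10.85, 10.11 and 11.10 to 12.74, 12.79 and 13.01. scw, which encodes a BMP ligand of the early dorsal ectoderm, did not follow: its mutant values of 9.89, 9.13 and 10.55 became 11.41, 11.74 and 8.96, so that replicate 3 was the lowest of all 6 samples. The change of 0.85 was not called, and in the wild type, where all 3 replicates rose, it was 3.21. The difference between the genotypes was not called (adjusted p = 0.294). Segment polarity genes rose in 6 of 10 cases in the mutant (median 1.42) and 4 in the wild type (median 0.75), among them ptc (2.03), nkd (2.13) and en (1.68), for which the wild-type change of 0.75 was not called. Of the 10 genes of the homeotic complexes 4 rose in the mutant, Abd-B (1.60), zen (1.39), Antp (0.94) and abd-A (0.93). In the wild type 4 of the 10 rose, and the list medians were 0.81 in the mutant and 0.73 in the wild type. Beside these 2 lists, 4.46% of all genes rose in the mutant and 5.74% in the wild type. X-counting and sex determination genes rose in 6 of 9 cases (66.7% against 4.46%), led by dpn (1.75) and sisA (1.71). The master switch Sxl rose by 0.73.

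Of 5 genome activators, which help to open the zygotic genome, 4 were already expressed at 0-1.5 h in the mutant. Only grh rose, by 1.62 from 9.70, 9.11 and 9.76 to 11.18, 11.18 and 11.07. zld, which encodes the pioneer factor Zelda, read 14.11, 14.15 and 14.57 and then 14.52, 14.54 and 14.61, a change of 0.28 that was not called (adjusted p = 0.485). Clamp (0.41), Trl (0.19) and Stat92E (0.04) were not called either.

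Cellularization genes, which are transcribed in a short burst as membranes enclose the blastoderm nuclei, had a smaller fitted change in the mutant than in the wild type for each of the 7 measured, and the difference passed the test for 1 of them. The list had a median of 1.60 in the mutant, with 5 genes called (71.4% against 4.46% of all genes). In the wild type the median was 3.93, with all 7 called (against 5.74% of all genes). halo, which controls lipid droplet transport, read 10.48, 9.51 and 10.36 and then 11.57, 12.57 and 11 in the mutant, against 9.12, 8.63 and 9.36 and then 13.53, 13.04 and 13.44 in the wild type. The mutant samples thus began above and ended below the wild-type ones, and the difference between the changes of -2.70 ± 0.49 passed the test (adjusted p = 0.0426). Leaving out each of the 12 samples in turn kept that call 2 times, and it was lost with dye as a covariate (adjusted p = 0.0604). For nullo, which stabilizes the furrow canals, the mutant values went from 9.73, 10.22 and 9.29 to 10.96, 11.73 and 9.17. The windows overlapped, and the change of 0.87 was not called. slam, another furrow gene, changed by 1.07 (adjusted p = 0.0725), whereas Z600, an inhibitor of mitosis also known as fruhstart, rose by 2.45, Sry-alpha by 2.24, bnk by 1.98 and trbl by 1.47. Apart from halo no single member differed between the genotypes at the threshold. At 0-1.5 h the mean over the 7 genes lay between 10.22 and 11.07 in the mutant samples and between 9.77 and 9.96 in the wild-type ones, and at 1.5-3 h between 11.79 and 12.93 and between 13.44 and 13.58. In the later window mutant replicate 3 was the lowest of the 3 mutant samples for each of these genes except trbl.

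**Figure D3:**
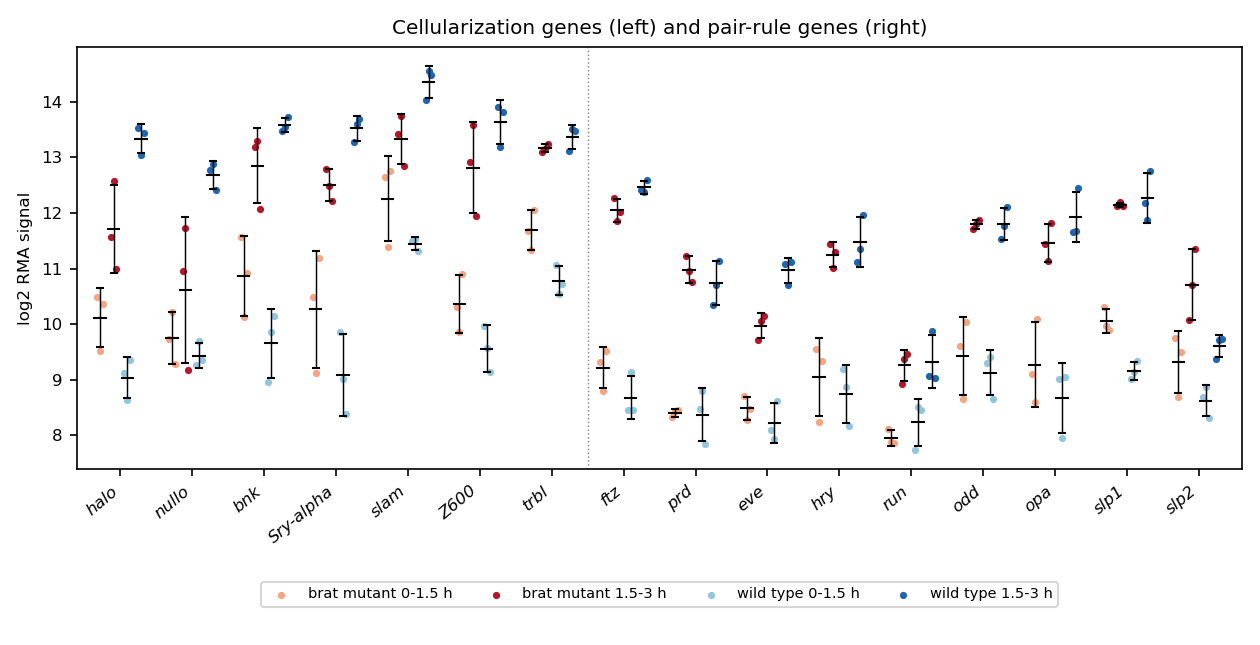
Log2 RMA signal of 7 cellularization genes (left of the dotted line) and 9 pair-rule genes (right) in each of 3 replicates per genotype and time; bars are means and error bars SDs. The later mutant samples of halo, between 11 and 12.57, lie below the wild-type ones, between 13.04 and 13.53.

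The same narrowing was seen over the strongest wild-type rises. The wild type as a whole had 782 rises (5.74%). Of 153 genes that rose at least 4-fold in the wild type, 150 changed less in the mutant, with medians of 2.73 and 1.70. These genes had a median level of 10.09 in the mutant and 8.97 in the wild type at 0-1.5 h, and of 11.93 and 12 at 1.5-3 h. These genes were picked for a large change in the wild type, which favours a smaller one in the mutant. Of 49 genes picked instead for a rise of at least 4-fold in the mutant, 17 changed more in the mutant than in the wild type, and their medians were 2.17 in the mutant and 2.73 in the wild type. For falls, 167 of 203 genes that fell at least 4-fold in the wild type fell less in the mutant, and 74 of 118 that fell at least 4-fold in the mutant fell less in the wild type.

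Of the 10 largest rises in the mutant, 4 were of genes that encode cuticle proteins, which the epidermis secretes at the end of embryogenesis. TwdlM, of the Tweedle family, read 8.01, 10.34 and 8.74 and then 12.53, 14.10 and 14.51 (4.68 ± 0.57, adjusted p = 0.00029). TwdlL read 8.00, 8.66 and 8.69 and then 11.26, 11.75 and 12.03 (3.23 ± 0.27). As for all 10, windows that do not overlap were part of the choice. The larval cuticle genes Lcp65Ag3 and Lcp65Ag1 rose by 3.65 and 3.56, from 7.96, 9.26 and 10.96 to 12.76, 12.88 and 13.50 and from 8.50, 9.33 and 11.41 to 13.04, 12.77 and 14.11. The coding sequences of these paralogs are closely similar, so their separate values are uncertain. CG10953, CG31626 and CG30457, to which no role is given here, rose by 3.70, 3.12 and 2.66. For CG10953 the earlier samples already spread from 9.09 to 13.08. These 7 genes stayed high at 4.5-6 h, with TwdlM at a mean of 14.23.

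None of the 7 was called in the wild type, and none differed between the genotypes by the test. There the replicates parted: TwdlM read 13.27, 12.80 and 8.11 at 1.5-3 h, and Lcp65Ag1 11.83, 11.13 and 7.85, so that wild-type replicates 1 and 2 were high and replicate 3 low. The wild-type change of TwdlM was 1.56 (adjusted p = 0.382), and the difference of 3.12 between the genotypes had an SE of 1.41 (adjusted p = 0.534). Over the 119 genes with cuticle protein symbols, a group picked after the values had been seen, 14 were higher and none lower in the mutant, which is 11.8% against 4.46% of all genes. In the wild type 2 were higher (1.68% against 5.74%).

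**Figure D4:**
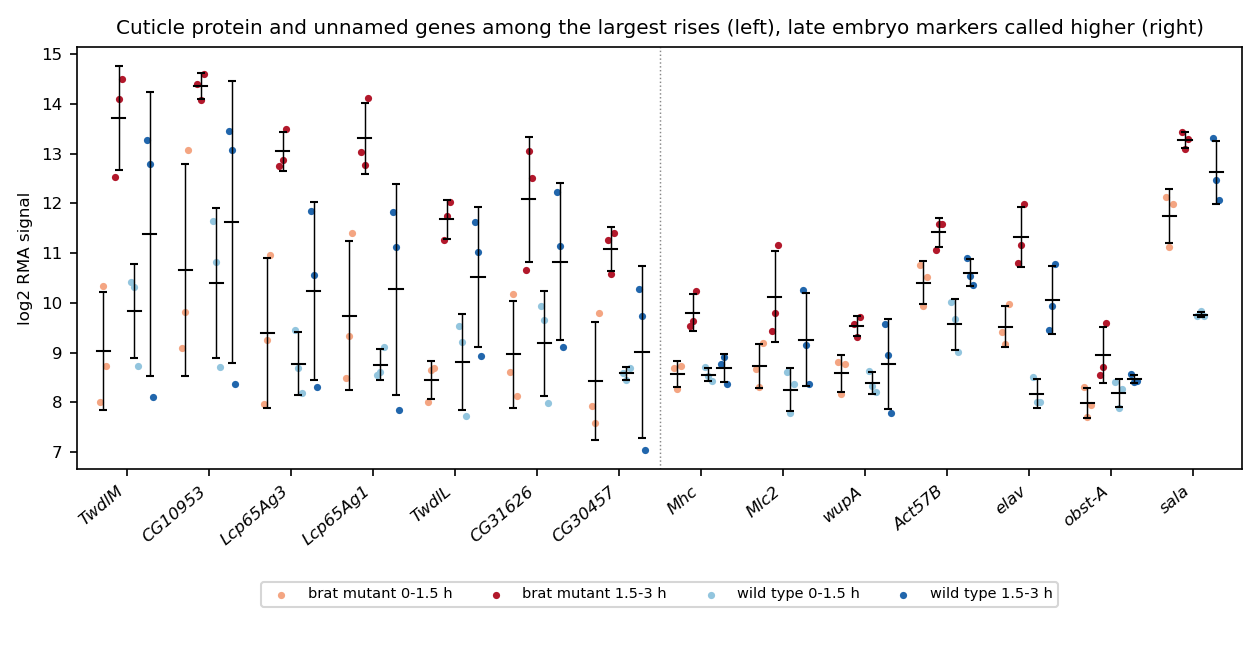
Log2 RMA signal of 7 of the 10 largest rises, 4 of them cuticle protein genes (left of the dotted line), and of the 7 late embryo markers called higher in the mutant (right), in each of 3 replicates per genotype and time; bars are means and error bars SDs. In the wild type at 1.5-3 h replicate 3 of TwdlM, at 8.11, lies apart from 13.27 and 12.80.

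Markers of later embryos were examined beside them. Of 16 such markers 7 rose in the mutant (43.8% against 4.46% of all genes) and none fell, with a median of 0.84, and 3 rose in the wild type (18.8% against 5.74%), with a median of 0.30. Only 3 of the 16 were expressed at 1.5-3 h in the mutant. The mean level of the list lay between 8.48 and 9 in the earlier and between 9.28 and 9.94 in the later mutant samples, and between 8.34 and 8.57 and between 8.75 and 9.31 in the wild type. The muscle genes Mhc (8.70, 8.27 and 8.74, then 9.54, 9.64 and 10.23) and Mlc2 (8.68, 8.32 and 9.20, then 9.43, 9.79 and 11.16) rose by 1.23 and 1.39. The neuronal gene elav rose by 1.80 from 9.42, 9.17 and 9.97 to 10.81, 11.17 and 11.98, with replicate 3 the highest in both windows. The other markers called were wupA (0.96), Act57B (1.00), obst-A (0.97) and sala (1.53). The synaptic genes brp, Syt1 and n-syb stayed between 7.72 and 8.51 in all 6 mutant samples. The part of these markers' cells in the rises of the cuticle genes was not tested.

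The direct test of whether the mutant change differed from the wild-type change was passed by 15 genes, 7 with a more positive (0.0514%) and 8 with a more negative (0.0587%) change in the mutant, and 1227 genes had an unadjusted p under 0.05. Over all genes the changes in the 2 genotypes, which share no samples, correlated with r = 0.77 across genes, which are not independent replicates. In the wild type 1581 genes fell. Of the genes that fell in the mutant 889 also fell in the wild type (81.2%, and 56.2% of the wild-type falls), and of those that rose 359 also rose (59.0% and 45.9%). The remaining 206 falls and 248 rises were not called in the wild type, but only 2 of them, CG6180 and Syx17, differed between the genotypes by the test. Hsp70Bb was the 1 gene called in opposite directions.

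**Figure D5:**
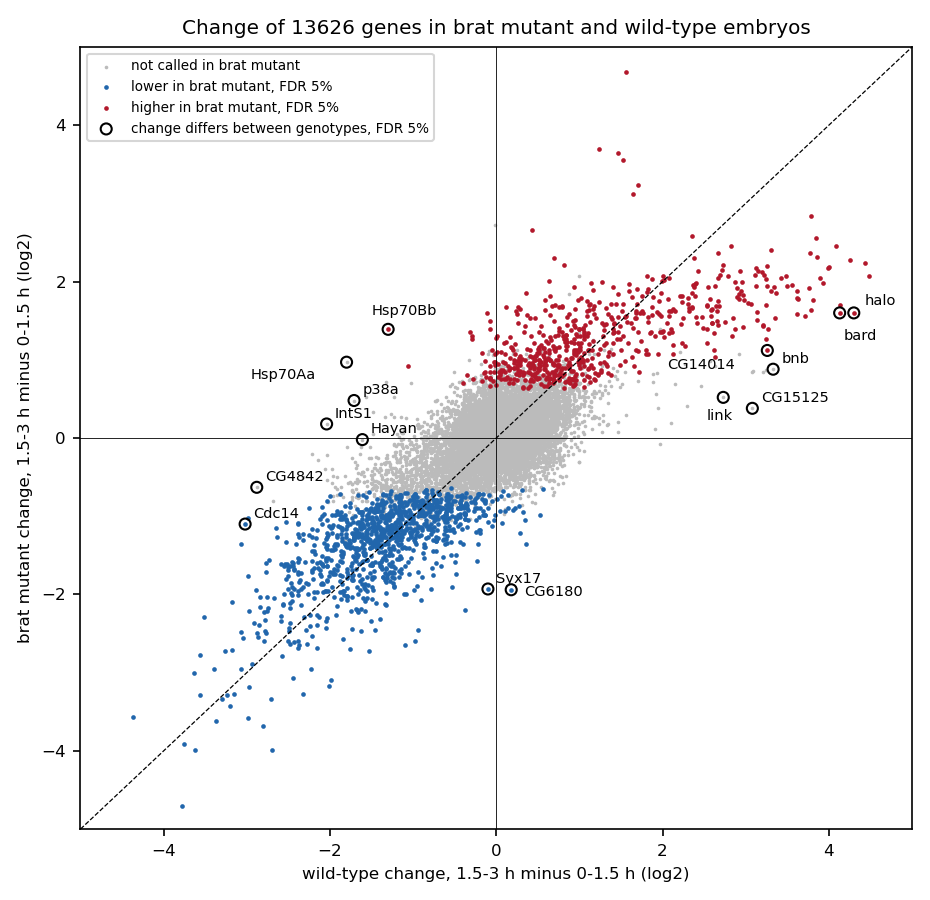
Change of each of 13626 genes between 0-1.5 h and 1.5-3 h in wild-type (x axis) and brat mutant (y axis) embryos, on the log2 scale, with calls in the mutant in colour, the 15 genes whose change differed between genotypes circled, and a dashed line of equal change. Most strong rises lie below the line at right, and Hsp70Bb lies at -1.30 and 1.39.

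Genes with a more negative change in the mutant were mostly early zygotic genes that rose steeply in the wild type. Beside halo they included bnb (bangles and beads), for which the mutant read 13.56, 13.29 and 14.40 and then 14.44, 14.64 and 14.82. The wild type read 11.31, 10.96 and 11.31 and then 14.47, 14.52 and 14.59. The ranges at 1.5-3 h thus overlapped after starts that did not, and the difference was -2.46 ± 0.35 (adjusted p = 0.0102). link (CG13333 in the files) began at 14.85, 14.23 and 14.63 in the mutant and at 13.02, 11.82 and 11.85 in the wild type, and ended between 14.88 and 15.18 in both. bard (CG14317) rose by 1.60 from 11.29, 10.75 and 12.14 in the mutant and by 4.13 from 9.88, 9.18 and 9.71 in the wild type. CG15125 behaved otherwise: it stayed between 8.22 and 9.63 in all 6 mutant samples and rose to 11.05, 11.14 and 11.67 in the wild type. CG6180 and Syx17, a gene of autophagosome fusion, fell in the mutant, and their wild-type changes of 0.18 and -0.10 were not called. CG6180 read 10.76, 10.47 and 11.01 and then 8.70, 8.62 and 9.10, against 11.37, 11.54 and 11.58 and then 11.78, 11.75 and 11.49 in the wild type.

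The genes with a more positive change fell in the wild type and fell less, or not, in the mutant. IntS1 (CG3173 in the files), which encodes a subunit of the Integrator complex, read 9.87, 9.91 and 9.57 and then 10.27, 9.97 and 9.66 in the mutant, and 10.19, 10.53 and 10.43 and then 8.19, 8.33 and 8.51 in the wild type. Its difference was 2.23 ± 0.29 (adjusted p = 0.00658). The stress kinase gene p38a (Mpk2) stayed between 10.36 and 11.38 in the mutant and fell by 1.71 in the wild type. CG4842 started far apart, at 8.53, 9.53 and 8.35 in the mutant and 11.13, 11.41 and 10.74 in the wild type, and ended between 7.93 and 8.53 in both. Cdc14, a phosphatase gene of mitotic exit in yeast and the only BRAT-associated mRNA among the 15, fell by 1.10 in the mutant and 3.02 in the wild type.

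The heat shock gene Hsp70Bb rose in the mutant from 9.54, 9.42 and 9.89 to 10.97, 10.57 and 11.47 and fell in the wild type from 11.03, 10.99 and 11.59 to 9.95, 9.81 and 9.94, a difference of 2.69 ± 0.34 (adjusted p = 0.00658). Hsp70Aa differed by 2.76. The other copies, Hsp70Ba, Hsp70Bbb and Hsp70Bc, differed by 1.73, 2.04 and 1.98 and did not pass the test. The Hsp70 copies are nearly identical in sequence, so these values need not be independent. Of 18 heat shock protein genes, a group also picked after the values had been seen, 2 rose (Hsp70Bb and Hsp70Bc) and 5 fell in the mutant. These are 11.1% and 27.8%, against 4.46% and 8.04% of all genes. None rose and 8 fell in the wild type (44.4% lower against 11.6% of all genes). Hsp83 (-1.83 and -1.28), Hsp27 (-1.94 and -0.99) and Hsp60 (-2.47 and -2.78) fell in both.

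Of the 15 genes, bnb, CG6180, Hsp70Bb and IntS1 passed the test whichever of the 12 samples was left out, and each of the other 11 was lost without at least 1 of them. Hsp70Bb and Hsp70Aa did not pass in the fit of all 24 samples (adjusted p = 0.158 and 0.272). With 1 of the 12 samples left out, the counts ran from 2 to 12 more positive and from 2 to 21 more negative genes, the highest without mutant replicate 2 of 1.5-3 h.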

How the data were processed

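Total RNA of brat mutant and w1118 embryos was labelled and hybridized by the authors to custom NimbleGen arrays with 1 sample per dye. The deposited table holds log2 values for 17775 transcript rows and 24 samples, which the authors had quantified in NimbleScan and then quantile normalized over all samples (RMA, ArrayStar), so shifts common to most genes are removed. The array's genome build is not given in the sources used here. 6 rows had no values. Rows were averaged per gene symbol, and 12968 of 13626 genes matched a gene in the RefSeq Release 6 table, from which current symbols were taken. Changes were fitted with limma (lmFit, eBayes) on the 6 mutant samples, and the difference from the wild-type change on 12 samples, with Benjamini-Hochberg adjustment over all genes. Exact permutation of 3 against 3 samples cannot give a p below 0.1 and was not used. Array data carry no read depth, and 3 replicates per group limit the precision. On simulated data 37.3% of 2-fold and 76.1% of 4-fold changes were recovered for the mutant change, and 10.4% and 70.1% for the difference, among 13626 genes. Only 200 genes were changed in each simulation, with independent noise. In the data 1703 genes were called for the mutant change, so these shares need not carry over to it. Named genes were the 10 largest falls and 10 largest rises called without overlap between the windows, the 5 largest differences in each direction, each matched to 1 RefSeq gene, then zld, hb, RpL32, brat and list members. The other 5 genes past the difference test were named after their values were seen. The BRAT- and PUM-associated lists and the classes came from the study's supplementary tables. The members and lists were chosen with earlier results of these data known. Tool versions were R 4.3.3, limma 3.58.1 and Python 3.11.15. Alternatives were the filter on expressed genes, a fit of all 24 samples, a replicate block, dye, single rows, limma-trend, a minimum change of 1.5-fold, 2 scalings, SAM and leaving out each replicate.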

Additional observations from a re-analysis of the deposited data

Results flagged for a closer look

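Each of the 15 genes below had a change between 0-1.5 h and 1.5-3 h that differed between brat mutant and wild-type embryos in the limma test of the difference; values are the mutant change minus the wild-type change on the log2 scale. More negative in the mutant were halo and CG15125 at -2.70 each, bard at -2.53, bnb at -2.46, link at -2.21, CG14014 at -2.14, CG6180 at -2.12 and Syx17 at -1.83. CG14014 read 9.54, 9.19 and 9.87 and then 10.95, 10.77 and 10.24 in the mutant and rose by 3.26 in the wild type. Syx17 read 10.38, 10.29 and 10.10 and then 8.33, 8.21 and 8.44 in the mutant and changed by -0.10 in the wild type. More positive in the mutant were Hsp70Aa at 2.76, Hsp70Bb at 2.69, CG4842 at 2.25, IntS1 at 2.23, p38a at 2.19, Cdc14 at 1.92 and Hayan at 1.58. Hayan, the gene of a serine protease, stayed between 7.83 and 8.34 in all 6 mutant samples and fell by 1.61 in the wild type. Groups of 3 samples were too small to test for single outlying samples.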

How the results depend on the processing

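The counts of genes that changed in the mutant kept within 1.5 times under most settings. A minimum change of 1.5-fold left 360 lower and 182 higher, and ribosomal protein scaling gave 1811 and 359. Leaving out 1 replicate gave 765 to 964 lower and 397 to 533 higher genes, the fewest without mutant replicate 2 of 0-1.5 h. All 20 named falls and rises were called in each of these 6 fits, which their choice by size on the same samples favours. The difference between genotypes was less stable. More positive and more negative genes numbered 18 and 19 among expressed genes, 16 and 25 in the fit of all 24 samples, 20 and 30 with limma-trend, and 5 and 5 with dye as a covariate. With a minimum change of 1.5-fold limma called 0 and 0, with 79 and 98 at an unadjusted p under 0.05. Leaving out 1 of the 12 samples gave 2 to 12 and 2 to 21, and each sample moved at least 1 of the counts by over 1.5 times except wild-type replicate 3 of 1.5-3 h. The shift of BRAT-associated mRNAs against other genes stayed between -0.34 and -0.23 in the mutant, and its difference between genotypes between 0.12 and 0.21 when a sample was left out. Under ribosomal protein scaling hb turned to -0.11 and RpL32 to -0.02. Of 635 values of named genes under alternatives 501 kept their side of the threshold and 3, all of brat, passed it. The 129 values that lost it all belonged to the 15 genes of the difference test. None belonged to the named falls and rises, which were chosen for size. With the replicate block 1106 genes were lower and 628 higher, 7 and 5 differed between the genotypes, of which only 5 and 3 were among the 15 above, since CG14014, Cdc14, Hayan, Syx17, bard, halo and link lost their call, and the BRAT-associated shifts were -0.28 and 0.16. Replicate numbers were not taken to pair the samples, since deviations of same-numbered mutant samples correlated with r = 0.08, 0.19 and 0.16 and those of wild-type samples with 0.18, 0.26 and 0.09, although each correlated best with its own number. Gene span, chromosome arm and promoter motifs were not analysed here, and the number of arrays limits the precision.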
